A study of Mus musculus with 12 samples.

Results

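The transcriptome of the triceps brachii muscle was compared between mice that ran but kept their myostatin and mice that lost myostatin but had no running wheel. The 3 active wild-type mice (AW) and the 3 inactive myostatin-reduced mice (IM) were taken out of 12 mice in 4 groups of 3. The other groups were inactive wild-type mice (IW) and active myostatin-reduced mice (AM). Of 10187 genes in the table, 7239 had a mean of at least 10 normalized reads over the AW and IM mice and were tested.

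All 12 were adult male C57/BL6 mice, and all received the same chow with 0.025% tamoxifen for 6 weeks between 4 and 6 months of age. In the myostatin-reduced mice the floxed myostatin gene (Mstn) was removed by a Cre recombinase that tamoxifen activates. The promoter that drove Cre, and whether the wild-type mice carried Cre, are not given in the sources used here. Active mice were moved at 6 months of age to cages of their own with a wheel for 12 weeks, so that wheel access and single housing cannot be told apart. AW and IM mice differed in both factors at once. A difference between them is therefore the change with activity less the change with genotype, and either factor can supply it.

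Myostatin is a secreted member of the TGF-beta family, made by muscle fibres, that restrains muscle growth. It signals through activin receptors and SMAD proteins, and its loss enlarges muscle, with fast glycolytic fibres favoured. Endurance running is known for the reverse bias in metabolism, toward mitochondria, capillaries and fatty acid use. Fibres differ in their myosin heavy chain: type I (Myh7), IIA (Myh2), IIX (Myh1) and IIB (Myh4), from slow and oxidative to fast and glycolytic.

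The depleted gene checked the labels. Mstn lies on chromosome 1 (mm9, 53118507 to 53124923, plus strand) and has 3 exons. Mstn was read at 110.26, 90.06 and 80.79 normalized reads in the AW mice and at 18.34, 17.19 and 21.59 in the IM mice. The groups did not overlap, and the IM mean was 79.7% below the AW mean (log2 difference 2.23 ± 0.22 SE, limma adjusted p = 0.00049). An exact two-sided permutation test gave p = 0.1, the smallest that 3 against 3 mice allow. In the IW mice Mstn was at 79.71, 138.1 and 131, and in the AM mice at 16.13, 8.7 and 13.46, so all 12 libraries matched their genotype labels.

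One library stood apart before any gene was compared. AW mouse 1 was low in genes of slow fibres, whereas AW mice 2 and 3 were high: the mean log2 deviation of 12 slow-fibre genes from their 12-mouse mean (the slow-fibre score) was -0.95, 2.27 and 2.42 in AW mice 1, 2 and 3. The IM mice scored -2.16, -1.34 and -1.86. The IW mice spanned -1.89 to 1.86 and the AM mice -1.51 to 2.03, nearly the whole range, so the score varied within groups as well as between AW and IM. The 6 libraries held an estimated 9023578 to 11758710 reads, and the 10 most abundant genes took 23.4% to 26.1% of the normalized reads in AW and 29.7% to 30.6% in IM. In whole muscle, fewer fibres of a type and less RNA per fibre cannot be told apart. The 8 skeletal muscle markers summed to between 156160.1 and 188164 normalized reads in the AW mice and between 234460.7 and 240117.7 in the IM mice. Of the 8, 4 were called lower in AW, against 9.73% of all genes. These calls rested on single mice: 3 were left without AW mouse 1, none without AW mouse 2 or AW mouse 3, and 1 without any one IM mouse. Acta1 lost its call in each of these fits. Under quantile normalization the called markers Ckm, Acta1 and Myh4 did not differ. The part of this difference in the gene results was not tested.

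The comparison called 1375 genes at a limma adjusted p under 0.05, which is 19.0% of those tested. Of these, 671 (9.27%) were higher in AW and 704 (9.73%) were higher in IM. The median called gene differed by 0.42 on the log2 scale. Large differences were mostly in one direction: 54 genes called higher in AW and 18 called lower differed by more than 1 on the log2 scale. The AW and IM mice did not overlap at 2824 genes (39.0%), among them 1361 of the called genes. At 79 called genes 1 group mean was under 10, so that they passed the filter through the group where they were higher. The number of calls rested on which mice were in the fit: 1650 without AW mouse 1, 653 without AW mouse 2, 557 without AW mouse 3, 856 without IM mouse 1, 899 without IM mouse 2 and 658 without IM mouse 3. With AW mouse 1 as the only AW mouse, 10 genes were called. Across these fits, no gene called with all 12 mice changed direction. At the 1361 called genes without overlap this was fixed in advance, since any part of the mice gives the same direction.

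**Figure D1:**
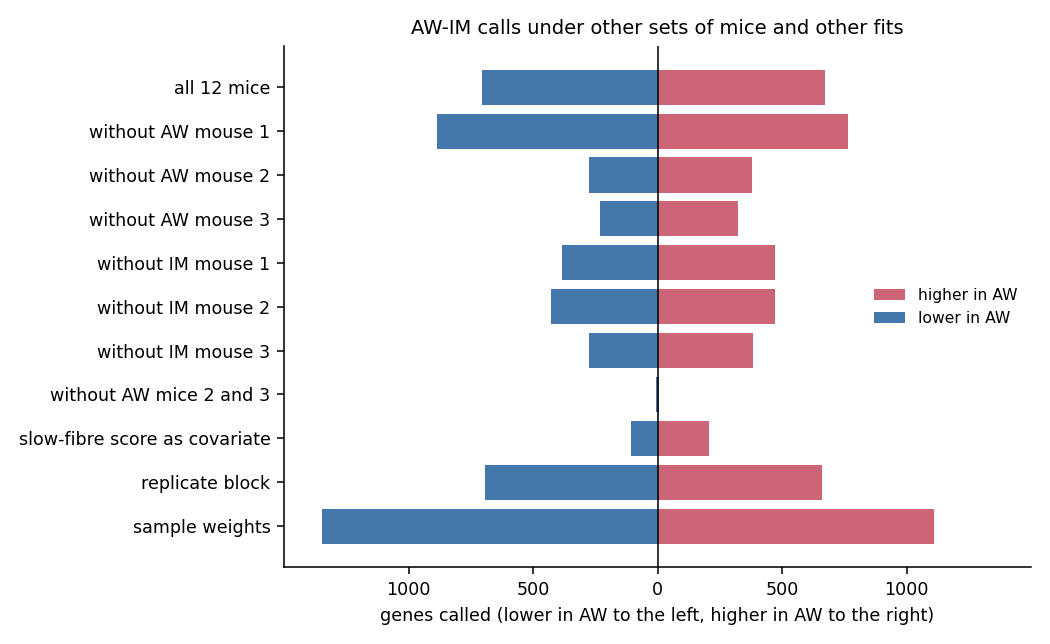
Number of genes called at a limma adjusted p under 0.05 in AW-IM (horizontal axis; red, higher in AW; blue, lower in AW) with all 12 mice, with mice left out and under other fits. Without AW mouse 1 the calls rose from 1375 to 1650, and with AW mouse 1 as the only AW mouse they fell to 10.

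The slow-fibre list had the largest median difference of the lists. All 12 tested slow-fibre genes had a higher mean in AW, by 1.45 to 4.65 on the log2 scale (median 2.9, against -0.02 over all tested genes). At 10 of the 12 the IM mean was under 10, so that they passed the filter through the AW mice, and the other 3 of the 15 listed genes were not tested, so the direction and the median are a description. Of the 12, 4 were called, all higher in AW, against 9.27% of all genes: Casq2, Ankrd2, Myoz2 and Csrp3. They encode a calcium-binding protein of the sarcoplasmic reticulum and Z-disc or stretch-response proteins. Myh7, the type I myosin heavy chain, had 15.59, 446.8 and 498.2 normalized reads in the AW mice and 1.43, 8.68 and 9.02 in the IM mice. Even AW mouse 1 was above every IM mouse, but the spread within AW left the difference of 4.65 ± 1.95 SE uncalled (adjusted p = 0.12). Tnnt1, the slow skeletal troponin T, had 5.73, 107.5 and 142 in AW and 0.53, 2.81 and 3.97 in IM, and was not called (adjusted p = 0.0731). Without AW mouse 1 all 12 were called, without AW mouse 2 or IM mouse 3, 1 was, without AW mouse 3 none were, without IM mouse 1, 2 were, and with the slow-fibre score as a covariate, which is built from these genes, none were. In a fit of the 6 AW and IM mice alone 11 were called, and with sample weights 12.

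The fast myosins split by isoform. Myh2 (type IIA, chromosome 11, 66984529 to 67011019) had 899.4, 4900.4 and 3102 normalized reads in AW and 354.1, 556.9 and 89.88 in IM.
Myh1 (type IIX, chromosome 11, 67013554 to 67038078) had 8406, 11563 and 12563 in AW and 2929, 2643 and 1727 in IM.
Myh4 (type IIB, chromosome 11, 67051314 to 67073948) had 75908, 56811 and 54013 in AW and 106795, 104829 and 106207 in IM.
Thus the IIA and IIX chains were higher in every AW mouse, and the IIB chain was higher in every IM mouse. The log2 differences were 3.19 ± 0.76 SE for Myh2 (adjusted p = 0.0131), 2.17 ± 0.32 for Myh1 (adjusted p = 0.00164) and -0.78 ± 0.18 for Myh4 (adjusted p = 0.0122). The Myh1 call held whichever mouse was left out, Myh2 lost its call without AW mouse 2, AW mouse 3 or IM mouse 3 (log2 differences 2.67, 3.00 and 2.43), and Myh4 lost it without AW mouse 2 or AW mouse 3 (-0.73 and -0.69). The 3 genes lie side by side and resemble each other in sequence, and how reads matching several of them were counted is not given in the sources used here.

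Of the 16 tested fast-fibre genes, 2 were called higher in AW (Myh1 and Myh2) and 7 lower, against 9.27% and 9.73% of all genes, with a median of -0.38. Actn3, the Z-disc actinin of fast fibres, had 8150.3, 5690.1 and 5889 normalized reads in AW and 12113, 12602 and 13326 in IM, a mean 1.93 times higher in IM (log2 difference -0.97 ± 0.17 SE, adjusted p = 0.00316). Mybpc2, the fast myosin-binding protein C, was 1.81 times higher in IM (log2 difference -0.86 ± 0.15 SE, adjusted p = 0.00327). The remaining called members were Myh4, the calcium pump Atp2a1 (-0.46), the calcium buffer Pvalb (-0.53), the light chain kinase Mylk2 (-0.41) and the light chain Mylpf (-0.41). The calls of these last 4 were lost without AW mouse 2, AW mouse 3 or any one IM mouse. Fast troponins had small uncalled differences: -0.27 for Tnnc2, -0.21 for Tnnt3 and -0.17 for Tnni2. Leaving out single mice moved the count of called-lower members between 2, without AW mouse 2 or AW mouse 3, and 10, without AW mouse 1, with 3 when any one IM mouse was left out. It was 3 under quantile normalization, where Myh4 differed by 0, 4 with a replicate block and 3 with the slow-fibre score as a covariate.

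**Figure D2:**
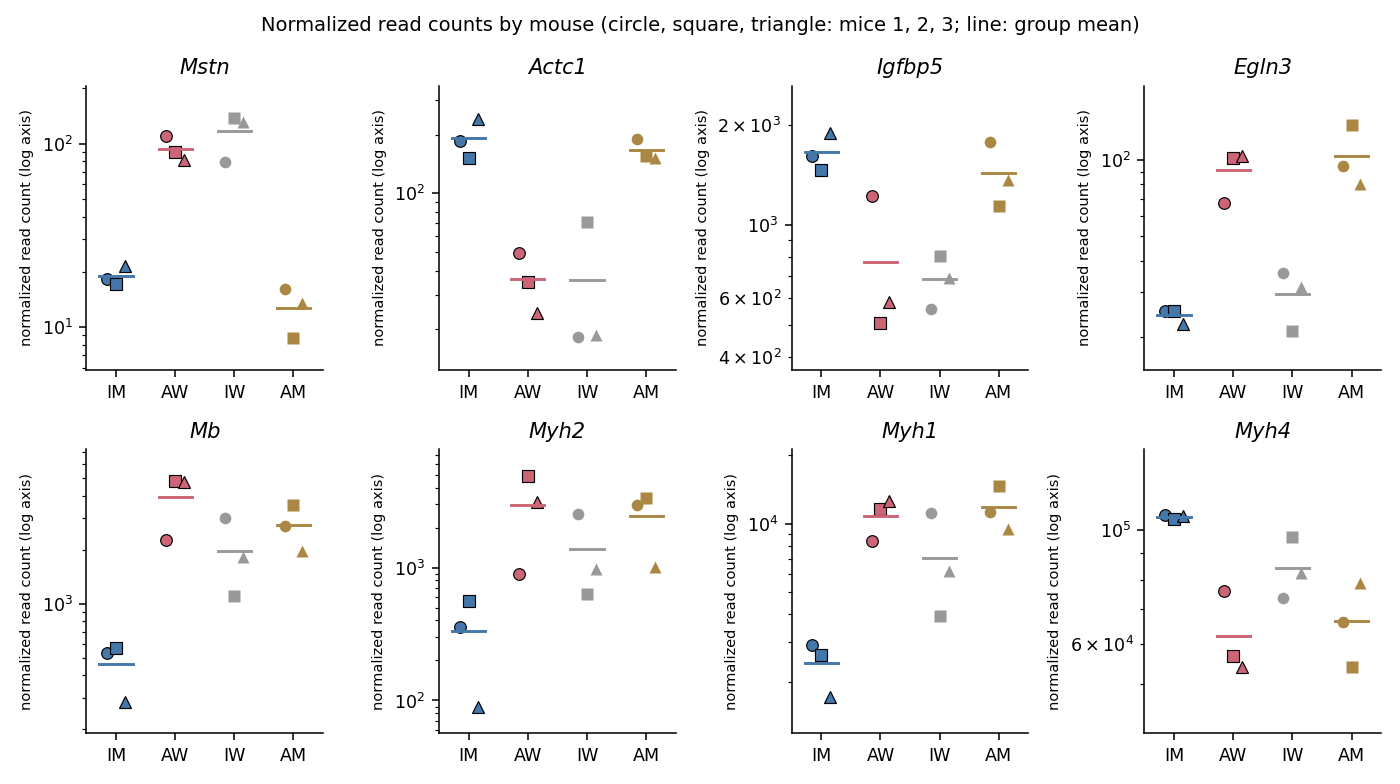
Normalized read counts (vertical log axes) of 8 genes in each mouse of the IM, AW, IW and AM groups, with marker shape for the mouse number and a line at the group mean. AW and IM points do not overlap at any of the 8, and AW mouse 1 (circle) lies nearest to IM for Mb, Myh1, Myh2 and Myh4.

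Nuclear genes of oxidative phosphorylation, the mitochondrial machinery that makes ATP with oxygen, were called almost without exception. Of 75 tested, 74 were called higher in AW and none lower, against 9.27% of all genes, and the median difference was 0.49 on the log2 scale. The differences were moderate in size, none above 0.86, but regular among the mice. At 73 of 75 genes AW and IM did not overlap, against 39.0% of all genes. That AW mouse 1 was above all 3 IM mice at 73 of the 75 follows from this lack of overlap and adds nothing to it. Uqcrq, a subunit of complex III, had 216.8, 248.2 and 260.3 normalized reads in AW and 145.2, 131.8 and 124.3 in IM, a 1.81-fold difference (log2 difference 0.85 ± 0.10 SE, adjusted p = 0.0013). Atp5g1 and Atp5g3 encode the same ring subunit of ATP synthase and were 1.83 and 1.8 times higher in AW (adjusted p = 0.00132 and 0.00075). Sdhb of complex II was 1.74 times higher (adjusted p = 0.00443). Ndufb4 of complex I was the member not called, at 12.12, 9.96 and 11.67 in AW and 12.54, 8.82 and 9.55 in IM. The call held in each of the 6 fits that left out 1 mouse for 67 of the 75. With the slow-fibre score as a covariate 50 of 75 were called, all 75 were positive, and the median was 0.39.

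Genes encoded by mitochondrial DNA did not move as a block. Of 13 tested, 3 were called higher in AW, against 9.27% of all genes, and the median difference was 0.15. ND5 had 607.2, 544.6 and 504.8 normalized reads in AW and 352, 312.8 and 297 in IM (log2 difference 0.78 ± 0.11 SE, adjusted p = 0.00132). ND3 differed by 0.59 (adjusted p = 0.00605), and COX3 by 0.45 (adjusted p = 0.0347), the latter called in 1 of the 6 fits without 1 mouse. ND1, another complex I subunit, had 1879.8, 1242 and 1476 in AW and 1322, 1433 and 1336 in IM, which overlap.

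Promoters of the genes that moved together were searched on both strands for 3 short motifs. The window ran from 250 bases before to 50 bases after each RefSeq start (GRCm38.p6), and 5866 of 7239 tested genes (81.0%) had one. TNAAGGTCA, the element bound by estrogen-related receptors, was in 1.06% of genes called higher in AW, 0.52% of those called lower and 0.818% of all tested. GCGCATGC, the core of the NRF1 site, was in 7.07%, 5.55% and 6.8%. CAGATG, an E-box of the kind bound by muscle regulatory factors, was in 13.6%, 15.6% and 13.2%. The called genes were thus close to all tested genes for each motif. Over all RefSeq promoters the shares were 1.43%, 3.05% and 19.2%. Among the nuclear oxidative phosphorylation genes, 3 of 62 had TNAAGGTCA, 9 of 62 had GCGCATGC and 8 of 62 had CAGATG (4.84%, 14.5% and 12.9%). Atp5g3 is shown as a called gene with the first motif upstream of its start; capitals mark the match, which is on the opposite strand, 52 to 44 bases before the start.
Atp5g3 promoter, chr2:73911327-73911476, GRCm38.p6, minus strand, 150 bases ending at the start: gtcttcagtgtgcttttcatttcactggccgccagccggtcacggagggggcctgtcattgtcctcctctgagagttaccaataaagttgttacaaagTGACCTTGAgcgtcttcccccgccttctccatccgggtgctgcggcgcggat
Atp5g3 itself had 621.9, 737.7 and 796.4 normalized reads in AW and 412, 410 and 376.2 in IM.

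Enzymes that feed the respiratory chain were higher in AW as well. Of 18 tested genes of pyruvate dehydrogenase and the tricarboxylic acid cycle, 17 were called higher in AW against 9.27% of all genes, with a median of 0.38, and the exception was Ogdh (0.23, adjusted p = 0.142). The largest difference was at Idh2, the mitochondrial NADP-linked isocitrate dehydrogenase, with 154.4, 421.1 and 384.3 normalized reads in AW and 96.87, 111.3 and 72.38 in IM (log2 difference 1.66 ± 0.37 SE, adjusted p = 0.01). Without AW mouse 3 the Idh2 difference was 1.46 and its call was lost. The other called members ranged more narrowly, from 0.22 at Cs, citrate synthase, to 0.53 at Dlst. With the slow-fibre score as a covariate 6 of the 18 were called, and without AW mouse 3, 12 were. All 5 tested genes of the malate-aspartate shuttle, which carries reducing equivalents into mitochondria, were called higher, against the same 9.27%. Mdh1 was at 716.1, 1039.7 and 1009.8 in AW and at 467.5, 438.7 and 400.4 in IM, and Got1 at 553.5, 701.1 and 740.9 against 344.8, 323 and 287.9, so both were about 2.1 times higher in AW (ratios of means 2.12 and 2.09). Without AW mouse 2 or AW mouse 3, and with the slow-fibre score as a covariate, 3 of the 5 were called: the aminotransferase Got2 lost its call without either AW mouse (0.43 and 0.48), and the carrier Slc25a12 without either of them or any one IM mouse (0.19 to 0.22).

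Fatty acid uptake and oxidation gave 19 called of 23 tested, all higher in AW against 9.27% of all genes, with a median of 0.67. Fabp3, the fatty acid-binding protein of oxidative muscle, had 98.23, 174.2 and 182.4 normalized reads in AW and 50.81, 58.2 and 40.51 in IM, a 3.04-fold difference (log2 difference 1.55 ± 0.27 SE, adjusted p = 0.00318). The beta-oxidation enzymes Acadl and Acaa2 were 2.49 and 2.43 times higher (adjusted p = 0.00177 and 0.00194). Lpl, which frees fatty acids from circulating lipoproteins, and the transporter Cd36 differed by 1.28 and 1.17 (adjusted p = 0.0123 and 0.013); both calls were lost without AW mouse 2, AW mouse 3 or IM mouse 3. Without AW mouse 2, AW mouse 3 or IM mouse 3, 13 of the 23 were called, and with the slow-fibre score as a covariate 8 were. Ucp3, an uncoupling protein that follows fatty acid supply, was the only member with a higher mean in IM and was not called (-0.15, adjusted p = 0.786).

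Genes of ketone body and lactate use had the highest median of the metabolic lists, 0.83. All 5 tested were called higher in AW, against 9.27% of all genes. The 5 were also called in each fit that left out 1 mouse, and 3 were called with the slow-fibre score as a covariate. Bdh1, which oxidizes the ketone body hydroxybutyrate, had 40.94, 118 and 95.55 normalized reads in AW and 5.38, 9 and 1.93 in IM, a 15.6-fold difference of means (log2 difference 3.78 ± 0.55 SE, adjusted p = 0.00158). Ldhb, the lactate dehydrogenase subunit of oxidative tissue, had 109, 324.4 and 306.5 in AW and 40.37, 43.2 and 14.79 in IM, a 7.52-fold difference (adjusted p = 0.00284). Slc16a1, a monocarboxylate transporter, was at 64.65 to 73.66 in AW and 35.64 to 42.27 in IM. Bdh1 had an IM mean under 10 and passed the filter through the AW mice, and with a mean of at least 50 the list had 4 called. For Bdh1 and Ldhb, AW mouse 1 lay between the IM mice and the other AW mice.

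Oxygen handling differed in a gene-specific way. Of 8 tested genes, 5 were called higher in AW and 1 lower, against 9.27% and 9.73% of all genes. Mb, myoglobin, the oxygen store of oxidative fibres, had 2261, 4842 and 4750 normalized reads in AW and 531.3, 564.5 and 284.4 in IM, an 8.59-fold difference (log2 difference 3.08 ± 0.39 SE, adjusted p = 0.00132). Egln3 and Egln1, prolyl hydroxylases that mark hypoxia-inducible factors for degradation, were higher in AW by 1.83 and 0.47 (adjusted p = 0.00127 and 0.00177), whereas Egln2 was lower by 0.29 and lost its call without any one of 5 of the mice. Vegfa and Vegfb, ligands for vessel growth, were each higher by 0.66 (adjusted p = 0.00599 and 0.00804). Hif1a and Epas1, the factors themselves, were not called, at -0.12 and 0.22. With the slow-fibre score as a covariate, 3 of the 5 genes called higher in AW were called.

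Transcriptional regulators of these programmes were less uniform, with 3 of 9 called higher, against 9.27% of all genes. Esrrg, an estrogen-related receptor abundant in oxidative muscle, had 33.15, 61.01 and 51.82 normalized reads in AW and 20.87, 20.37 and 10.75 in IM (log2 difference 1.45 ± 0.32 SE, adjusted p = 0.00922). Esrra differed by 0.45 (adjusted p = 0.00477) and Ppara by 0.74 (adjusted p = 0.0393), the latter called in only 1 of the 6 fits without 1 mouse. Ppargc1a, the coactivator often measured after exercise, was at 58.14, 71.86 and 64.6 in AW and at 57.66, 50.97 and 44.18 in IM, a difference of 0.35 that was not called (adjusted p = 0.0901). Tfam and Gabpa, which act on mitochondrial genes, had uncalled differences of 0.06 and 0.27. None of the 9 was called with the slow-fibre score as a covariate.

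**Figure D3:**
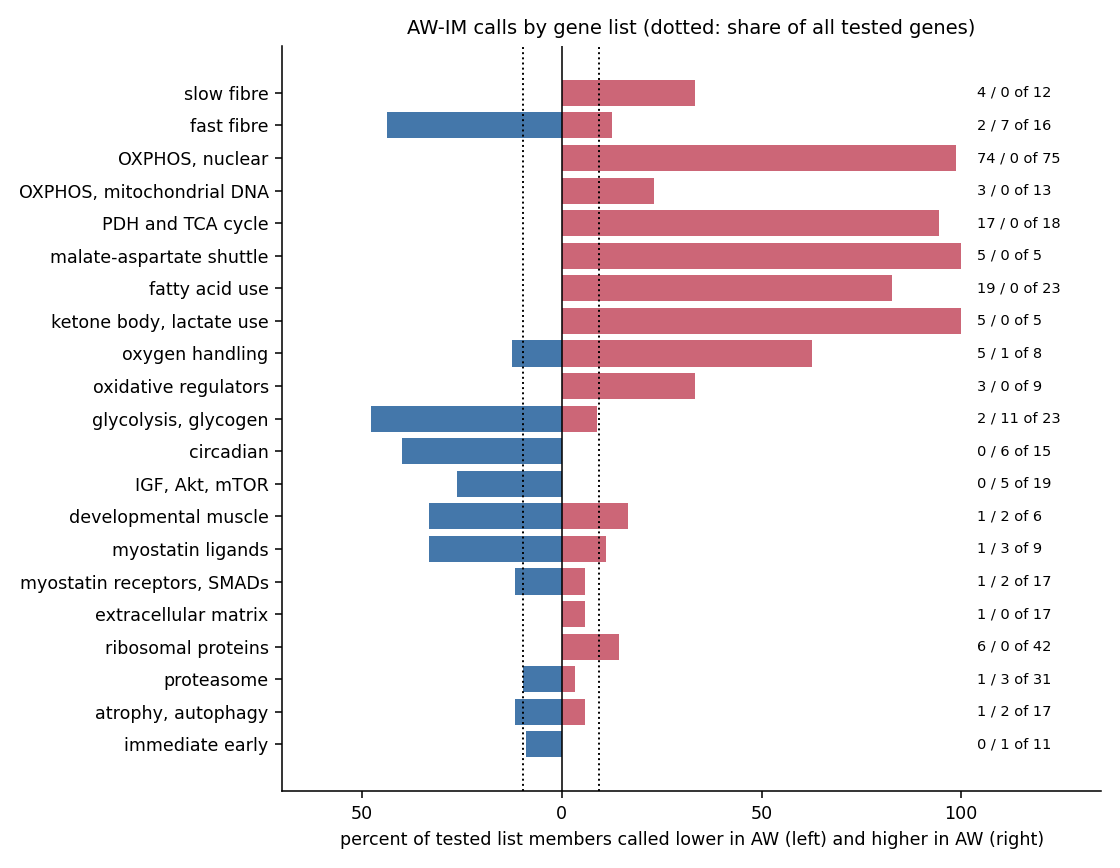
Percent of tested members of 21 gene lists called higher in AW (red, to the right) or lower in AW (blue, to the left) in AW-IM, with the numbers of calls, higher then lower, at the right. Dotted lines give the shares over all tested genes, 9.27% higher and 9.73% lower. The nuclear oxidative phosphorylation list reached 74 of 75.

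Glycolysis and glycogen genes leaned the other way. Of 23 tested, 11 were called lower in AW and 2 higher, against 9.73% and 9.27% of all genes, with a median of -0.32. Pygm, muscle glycogen phosphorylase, had 9747, 7881 and 7946 normalized reads in AW and 13677, 12976 and 15028 in IM, a mean 1.63 times higher in IM (log2 difference -0.71 ± 0.14 SE, adjusted p = 0.00514). Pfkfb3, which makes an activator of phosphofructokinase, had the largest difference of the list (-1.22 ± 0.32 SE, adjusted p = 0.0213), and its call was lost without AW mouse 2, AW mouse 3, IM mouse 2 or IM mouse 3 (-1.24, -0.81, -1.26 and -1.03). Phka1, a regulatory subunit of phosphorylase kinase, and Gpd1, glycerol-3-phosphate dehydrogenase, were lower by 0.69 and 0.64. Several abundant enzymes were not called, among them Aldoa (-0.29), Ldha (-0.27) and Tpi1 (-0.07). The 2 members higher in AW were Gbe1, the glycogen branching enzyme (0.40), and Pfkfb1 (0.32); neither was called without AW mouse 2, AW mouse 3 or IM mouse 3. Counts of members called lower fell to 4 without AW mouse 2 or AW mouse 3, rose to 14 without AW mouse 1, and were 2 with the slow-fibre score as a covariate.

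Among the 12 largest differences in each direction were some genes of ion transport, named because of their size and not as a list. Atp1b1, a beta subunit of the sodium pump, had 151.6, 339.7 and 333.6 normalized reads in AW and 72.94, 74.75 and 45.1 in IM (log2 difference 2.02 ± 0.39 SE, adjusted p = 0.00468). Atp1b2, another beta subunit, had 220.1, 151.3 and 159.3 in AW and 299.9, 321.3 and 405.7 in IM (log2 difference -0.96 ± 0.18 SE, adjusted p = 0.00389). Fxyd6, of a family of pump regulators, was 6.54 times higher in AW (adjusted p = 0.00658). Wnk2, a kinase of a family that controls ion transport, was 2.44 times higher in IM, at 108.7, 84.89 and 96.44 in AW and 223.8, 194.5 and 287.9 in IM (adjusted p = 0.00132). Prkab2, the AMP-activated kinase subunit found in skeletal muscle, was 1.83 times higher in IM (adjusted p = 0.00206). Others of the 12 largest differences in AW were Fhl1, Lmcd1 and Lmod2 (1.67, 1.61 and 1.85), LIM-domain and actin-filament proteins. On the IM side they included Ces1d, Rasd2, Dopey2 and Cmbl (-0.98, -0.96, -0.86 and -0.86). Of these 24 genes, 18 kept the call whichever mouse was left out, and 17 kept it with the slow-fibre score as a covariate.

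Actc1, the cardiac actin that fetal and regenerating muscle also makes, had 49.33, 35.17 and 24.2 normalized reads in AW and 185.7, 151.6 and 240.3 in IM, a mean 5.31 times higher in IM (log2 difference -2.41 ± 0.41 SE, adjusted p = 0.00284). It lies on chromosome 2 (113873018 to 113879284, mm9). Its list of developmental genes had 6 tested members, 3 of them called against 19.0% of all genes, of which Mybph was also called lower in AW (-1.62) and Chrna1 higher (0.60), the latter in none of the fits without 1 mouse. Mybph lost its call without AW mouse 2, AW mouse 3 or IM mouse 3 (-1.57, -1.48 and -1.33). Myod1 and Myf6, myogenic transcription factors, were not called (-0.26 and -0.30). Among 19 genes of IGF, Akt and mTOR signalling, 5 were called lower in AW, against 9.73% of all genes, and none higher. Igfbp5, a secreted IGF-binding protein, had 1224, 507.2 and 584.3 in AW and 1613, 1464 and 1886 in IM (log2 difference -1.20 ± 0.27 SE, adjusted p = 0.0105), and lost its call without AW mouse 2 or AW mouse 3 (-0.96 and -1.06). The other 4, Irs2, Mtor, Rps6kb1 and Tsc2, differed by -0.74, -0.30, -0.29 and -0.28. No more than 2 of the 5 calls were left without AW mouse 2, IM mouse 1 or IM mouse 2, 1 without IM mouse 3, and none without AW mouse 3.

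In the myostatin pathway, 9 ligands and inhibitors were tested. Of these, 1 was called higher in AW and 3 lower, against 9.27% and 9.73% of all genes. The member called higher was Mstn, the depleted gene itself, and Gdf11 and Tgfb2 (-0.35) were among the 3 called lower. Gdf11, the closest relative of myostatin, passed the filter only through the IM mice, where it was higher, and was not tested when the mean of 10 was taken over all 12 mice, where 1 and not 3 of the list were called lower. It had 6.15, 5.08 and 5.4 normalized reads in AW and 12.54, 13.1 and 18.83 in IM (log2 difference -1.25 ± 0.17 SE, adjusted p = 0.0014). Pmepa1, a gene that TGF-beta signalling induces and that dampens it, had 26.63, 23.66 and 26.5 in AW and 13.59, 14.55 and 18.54 in IM (0.69 ± 0.12 SE, adjusted p = 0.00245). The type I receptor Acvr1b and the type II receptor Acvr2a were lower in AW by 0.41 and 0.45 (adjusted p = 0.0121 and 0.0357), and leaving out any one mouse lost the Acvr2a call. Acvr1b lost its call without AW mouse 3 or IM mouse 3 (-0.34 and -0.38), and Tgfb2 without AW mouse 2 or IM mouse 3 (-0.30 and -0.31). With Pmepa1 they made 3 called of 17 tested receptors, SMADs and feedback genes, 17.6% against 19.0% of all genes. Smad3 and Smad4, which carry the signal, had uncalled differences of -0.21 and -0.09.

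Clock genes and their outputs were lower in AW where they were called, 6 of 15 against 9.73% of all genes, with a median of -0.52. Cry2, a repressor of the clock, had 36, 31.33 and 30.87 normalized reads in AW and 52.92, 53.11 and 71.19 in IM (log2 difference -0.82 ± 0.14 SE, adjusted p = 0.00251). The clock output factors Dbp and Hlf were lower by 0.95 and 0.73, and Dbp lost its call without AW mouse 2, AW mouse 3 or IM mouse 3 (-0.99, -0.94 and -0.77). Per1 was lower by 1.51 but lost its call without any one of 4 mice, AW mouse 1 and AW mouse 3, IM mouse 1 and IM mouse 2 (-1.26, -1.41, -1.53 and -1.21). Core activators were not called: Arntl differed by 0.13 and Clock by 0.08. The hour of tissue collection is not given in the sources used here. Without AW mouse 3, 3 of the 15 were called, without AW mouse 2, IM mouse 1 or IM mouse 3, 4 were, and with the slow-fibre score as a covariate 1 was.

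Ribosomal proteins had 6 of 42 called higher in AW, against 9.27% of all genes, none lower and none by more than 0.32. By value 35 of the 42 were higher in AW, against 46.9% of all genes, and 2 to 4 were called with single mice left out. Proteasome subunits had 1 higher and 3 lower of 31, and atrophy and autophagy genes 1 higher and 2 lower of 17, against 9.27% and 9.73% of all genes, where Fbxo32 and Trim63, the muscle atrophy ligases, were not called (-0.37 and -0.31). Without AW mouse 2, AW mouse 3 or IM mouse 3, no proteasome, atrophy or autophagy gene was called. Without IM mouse 1 the proteasome list had no call and the atrophy and autophagy list 2 lower, and without IM mouse 2 they had 1 lower and 1 higher. Of 17 matrix genes, Mgp alone was called (0.83), and not without AW mouse 2, AW mouse 3 or IM mouse 3 (0.72, 0.82 and 0.76). Of 11 immediate-early genes, Jun alone was called (-0.36), and not without AW mouse 3 or IM mouse 1 (-0.35 and -0.31).

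Markers of other cell types were checked beside these groups. Endothelial markers leaned toward AW, with 6 of 12 tested called higher (Kdr, Tie1, Egfl7, Tek, Emcn and Pecam1) and a median of 0.55, against 9.27% of all genes called higher. Without AW mouse 2 or AW mouse 3, 1 of the 12 was called, without AW mouse 1, 9 were, without IM mouse 1 or IM mouse 2, 3 were, without IM mouse 3, 2 were, and with the slow-fibre score as a covariate none was. Egfl7 kept its call whichever mouse was left out. Kdr, a VEGF receptor, had 65.09, 88.6 and 110.5 normalized reads in AW and 52.92, 42.1 and 50.98 in IM, and lost its call without AW mouse 2, AW mouse 3 or IM mouse 2 (0.80, 0.64 and 0.72). Tie1, Tek, Emcn and Pecam1 also lost theirs without AW mouse 2, AW mouse 3 or IM mouse 3. Summed over the 16 markers in the table, the mice ranged from 416.6 to 705.3 in AW and from 374.5 to 414.9 in IM. The part of endothelial RNA in the differences of Fabp4 (0.86), Vegfa and the fatty acid genes was not tested. Fibroblast, mural, macrophage, tendon, Schwann and satellite cell lists had no called member, and of the adipocyte markers Fabp4 was called and Cfd was not. A single red-cell marker was in the table, Alas2, at 2.11 to 5.81 in these mice.

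**Figure D4:**
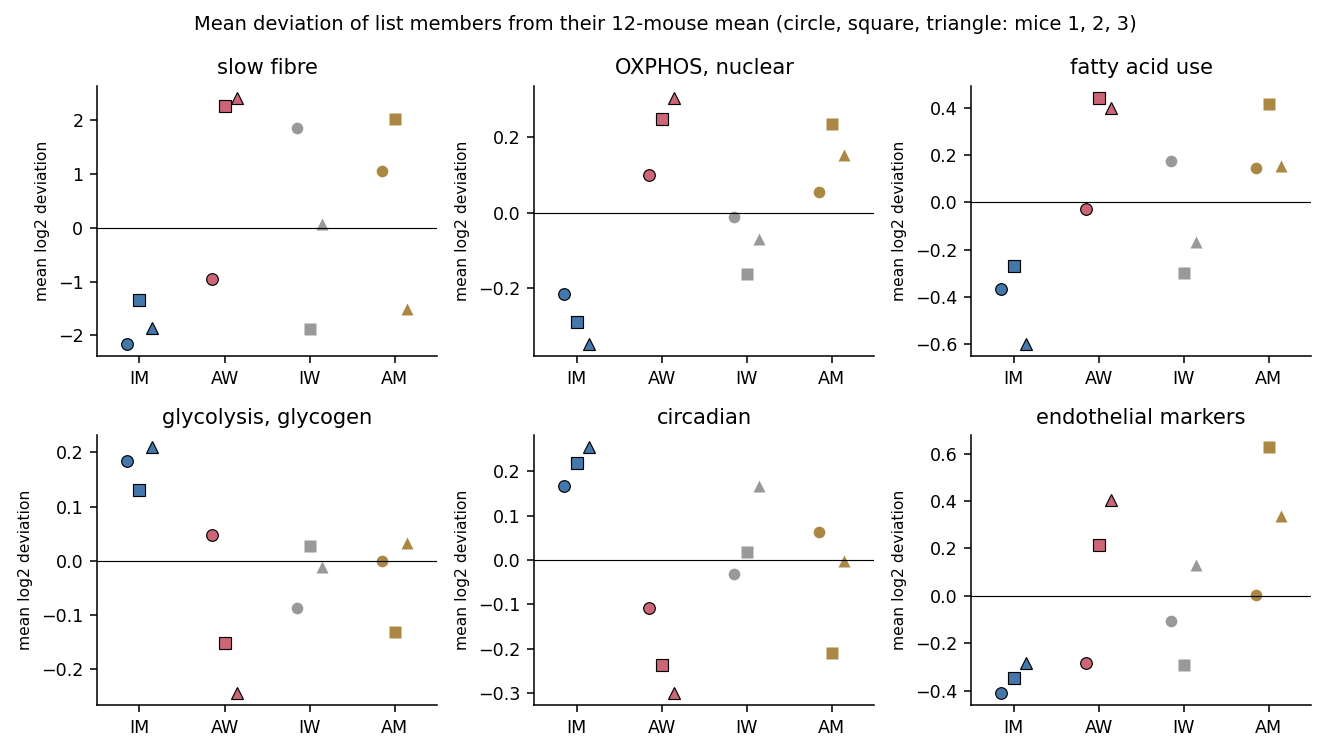
Mean log2 deviation of the tested members of 6 lists from their 12-mouse means (vertical axes), for each mouse of the IM, AW, IW and AM groups; marker shape gives the mouse number. For the nuclear oxidative phosphorylation genes the AW mice lie at 0.099, 0.248 and 0.303 and the IM mice at -0.215, -0.289 and -0.346, whereas for slow-fibre genes AW mouse 1, at -0.952, lies far below the other AW mice.

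The AM and IW mice gave separate differences for the same genes, since none of them enters the AW-IM difference. The calls were not separate, because the same fit of all groups gave both contrasts their spread between mice. Where activity and genotype do not interact, AM-IW adds the changes that AW-IM subtracts; otherwise AM-IW also holds the interaction. For the interaction limma called 0 genes, with 300 at an unadjusted p under 0.05. Of the 671 genes higher in AW, 506 (75.4%) were also higher in AM than in IW by value, against 56.4% of all genes with a higher mean in AW. Of the 704 genes lower in AW, 347 (49.3%) were also lower in AM, against 58.9% of all genes with a lower mean in AW. AM-IW itself called 221 genes (3.05%, with 1.27% higher and 1.78% lower in AM). In a fit of the AM and IW mice alone, AM-IW called 39 genes. In the main fit 81 genes were called in both contrasts, 42 in the same direction and 39 in opposite directions. Over all genes the 2 sets of differences had a Pearson r of 0.15, given as a description, since genes of 1 sample are not independent.

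Of the 75 nuclear oxidative phosphorylation genes, 74 had a higher mean in AM than in IW, against 48.3% of all genes, with a median of 0.24, and 8 were called higher against 1.27% of all genes. Fatty acid genes had 22 of 23 higher by value (median 0.34, 1 called) and tricarboxylic acid cycle genes 17 of 18 (median 0.17, 1 called). Egln3 kept both direction and size: it differed by 1.78 in AM-IW (adjusted p = 0.00155), with 94.24, 137.4 and 80.48 normalized reads in AM and 35.68, 21.12 and 31.42 in IW. The mitochondrial creatine kinase Ckmt2 differed by 1.16 in AW-IM and 0.88 in AM-IW, and the adenylate kinase Ak4 by 0.89 and 1.79. Mylk4, a kinase of the myosin light chain kinase family, was lower in both, by 0.70 and 0.80, and Ddt was higher in both, by 0.48 and 0.85. Of these, the AW-IM call of Ak4, Ddt and Mylk4 was lost without AW mouse 2, AW mouse 3 or IM mouse 3, and that of Ddt also without IM mouse 1 or IM mouse 2.

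Genes that turned between the contrasts included Mstn itself (2.23 in AW-IM, -3.09 in AM-IW). Actc1 was at 188.7, 155.8 and 152.3 normalized reads in AM and 18.33, 71.21 and 18.68 in IW, a difference of 2.46 (adjusted p = 0.011) against -2.41 in AW-IM. Dkk3, a secreted protein of the Dickkopf family, was low in all 6 myostatin-reduced mice, at 5.48, 7 and 10.01 in IM and 5.8, 4.47 and 4.71 in AM, and between 22.1 and 33.97 in the 6 wild-type mice. Ddah1, which degrades methylated arginines, was likewise lower in myostatin-reduced mice (1.39 in AW-IM and -2.11 in AM-IW). The transcript 4832428D23Rik was at 8.4, 6.33 and 6.67 in AW, 75.16, 83.84 and 58.88 in IM, 40.23, 50.3 and 70.39 in AM and 3.95, 2.95 and 2.71 in IW. It lies on chromosome 1 (44260915 to 44275806, mm9), 8.86 Mb from Mstn. Pmepa1 and Wnk2 turned as well, at -0.92 and 0.69 in AM-IW (adjusted p = 0.00167 and 0.0468). The slow-fibre list did not separate AM from IW, with no member called and a median of 0.50.

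**Figure D5:**
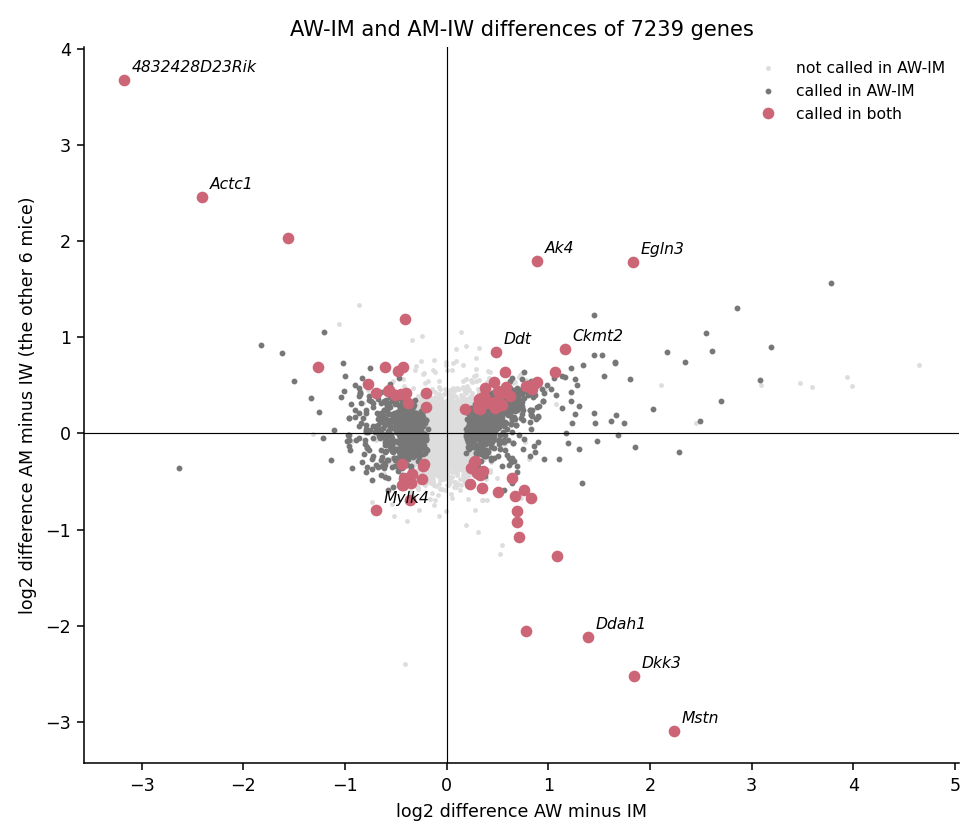
Log2 difference AW minus IM (horizontal axis) against AM minus IW (vertical axis, the other 6 mice) for 7239 genes; grey marks genes called in AW-IM and red the 81 called in both. Mstn, Dkk3 and Ddah1 lie at the lower right, Actc1 and 4832428D23Rik at the upper left, and Egln3, Ak4 and Ckmt2 at the upper right.

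Set against the inactive wild-type baseline, AW and IM moved in opposite directions by value at 1235 of the 1375 called genes (89.8%), against 53.6% of all tested genes. AW-IW and IM-IW share the IW mice, and genes were called for AW and IM being far apart, so this count is a description. The 671 genes higher in AW had a median of 0.23 in AW-IW and -0.22 in IM-IW, and the 704 lower in AW had -0.16 and 0.24. AW-IW called 2 genes (0.0276%) and IM-IW 187 (2.58%), and both counts rested on the mice and the fit: AW-IW called 208 without AW mouse 1 and 424 with sample weights, and IM-IW called 23 without IW mouse 1 and 347 with sample weights. The nuclear oxidative phosphorylation genes had medians of 0.29 in AW-IW and -0.20 in IM-IW with no member called in either. For Mb the steps were 1.04 and -2.04, for Egln3 1.60 and -0.23, for Myh1 0.73 and -1.44, and for Actc1 0.25 and 2.66.

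Genes near Mstn were counted apart. Within 25 Mb of Mstn on chromosome 1, 37 of 129 tested genes (28.7%) were called, 22 higher and 15 lower in AW, against 18.8% of the 7020 placed elsewhere.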

How the data were processed

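Polyadenylated RNA of triceps brachii from 12 mice, 3 per group, was sequenced by the authors as single-end reads of 65 bases, mapped to mm9 with CASAVA and counted over RefSeq exons. The deposited signal is a normalized read count per gene, scaled by the authors so that the mean without the highest and lowest 5 percentiles was equal in all samples. Genes of mitochondrial DNA were counted apart and scaled to the other genes. The steps between low values gave the estimated depth of 9023578 to 12184078 reads. Only 88.6% to 91.2% of values under 5 were whole multiples of a read within 0.0051, and 67.2% to 69.8% of those from 20 to 50, where evenly spread values would give 9.68% to 13.2%, so that no count test was used.

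Values were taken as log2(value + 1). Differences are on that scale and understate those of low genes. limma 3.58.1 (R 4.3.3) was fitted to 4 group means with a trended prior, two-sided, with Benjamini-Hochberg adjustment over 7239 genes. Ratios are of group means. Whether the mice of a group shared a litter is not given in the sources used here. The p-values measure the spread between mice.

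Gene lists and the comparison itself were chosen with earlier results of these data known. Named genes were Mstn, the 12 largest differences in each direction among called genes with a mean of at least 50 and no overlap, up to 5 called and 3 uncalled members of each list, and the 5 largest AM-IW differences in each sign relation among genes called in both contrasts. Genes named outside this rule to account for a whole list were chosen after their values were seen. Positions are from GENCODE vM1 on mm9 (NCBIM37), matched by symbol for 10043 of 10187 genes. Promoters are from RefSeq, matched by symbol or a unique synonym. Some results are not reported here.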

Additional observations from a re-analysis of the deposited data

How the results depend on the processing

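The 1375 AW-IM calls were 858 with a mean of at least 50 (of fewer genes tested), 2460 with sample weights, 313 with the slow-fibre score as a covariate, 490 at an adjusted p under 0.01, 557 to 1650 with single mice left out and 10 without AW mice 2 and 3, a fit chosen after seeing the data that assumes the lone AW mouse varies like the other groups. The 221 AM-IW calls were 39 in a fit of their own 6 mice, 439 with the slow-fibre score and 59 to 309 with single mice left out. The 2 AW-IW calls were 39 with a mean of at least 50, 424 with sample weights, 37 with the slow-fibre score, 0 in the fit of 6 mice and 0 to 208 with single mice left out. The 187 IM-IW calls were 347 with sample weights, 121 with the slow-fibre score and 23 to 176 with single mice left out. The cause was not tested in any of these cases. Replicate numbers did not pair the mice: deviations of same-numbered AW and IM mice correlated at 0.03, 0.32 and -0.06. With a replicate block there were 1352 AW-IM calls, 1256 of them shared, 0 AW-IW calls and 113 IM-IW calls. Under quantile normalization, which gives equal values to genes of equal rank, Myh4, Ckm, Acta1 and Atp2a1 differed by 0. These were the 4 called genes whose direction was lost there. No called gene reversed under any of the fits. In fits that only left mice out, this was fixed in advance at the 1361 called genes without overlap. Changed pseudocounts, no filter, the filter over 12 mice, no trend, median-of-ratios scaling and the fit of the 6 AW and IM mice alone gave 1291 to 1474 AW-IM calls.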
